A study of Mus musculus with 35 samples.

Results

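The comparison set the tumor change of a chemical model of liver cancer against that of an oncogene model. For each gene it took diethylnitrosamine (DEN) tumors minus DEN non-tumorous liver (NTL), and subtracted MYC tumors minus MYC NTL from it. The result, a difference of changes on the log2 scale, was computed from 18 of the series' 35 arrays: 5 DEN tumors, 5 DEN NTL, 5 MYC tumors and 3 MYC NTL. All arrays carrying these labels were used, and none was chosen by its values. The same number equals the DEN minus MYC gap in tumors less the DEN minus MYC gap in NTL, so each gene's difference could be assigned to tumor arrays, NTL arrays or both. It was assigned to tumor arrays where the gap in tumors made up 70% or more of the difference, to NTL arrays where it made up 30% or less, and to both in between.

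DEN mice received the carcinogen once by intraperitoneal injection, at 10 mg per kg on day 15 of life, and were examined at 9 months. MYC mice carried a tetracycline-responsive MYC transgene (TRE-MYC) together with LAP-tTA, whose liver-specific promoter makes the activator of the transgene. Chow with doxycycline at 200 mg per kg kept the transgene off until 8 weeks and was then withdrawn. No label states how old the MYC mice were at collection, or the strain and sex of any mouse. Control livers served as a second baseline: 5 from untreated mice of the DEN experiment and 4 from mice without a transgene that the MYC model shares with a lymphotoxin (LT) model, matched for sex and age.

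The 5 DEN tumors carry mouse identifiers with only 3 stems, replicates 1 and 4 sharing one and replicates 3 and 5 another, so some of these tumors may come from 1 animal. No stem is shared between tumor and NTL arrays, so tumor and NTL tissue came from different animals by these identifiers. Each of the 3 MYC NTL mouse identifiers starts with WT, so it is unclear whether transgenic or wild-type animals gave this tissue. Nothing else states how the samples of a group relate, so the p-values measure the spread between these arrays. The models were run as separate experiments, so in the direct gaps between DEN and MYC tissue the model and the experiment cannot be told apart. A bulk array also cannot tell fewer cells of a type from less RNA per cell.

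DEN is converted by cytochrome P450 enzymes of the hepatocyte into a product that alkylates DNA, and the tumors grow from hepatocytes with mutations. MYC is a transcription factor that pairs with MAX on the DNA motif CACGTG, the E-box, and raises genes of ribosome production, nucleotide synthesis and cell growth. Both models give hepatocellular tumors, in which liver enzymes, zonation and the genes of dividing cells are the usual readouts.

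Liver-defining genes were near the top of the arrays' range. Albumin (Alb) lay between 13.59 and 13.78 in the 18 arrays, and the mean over 15 such genes lay between 13.0 and 13.3 log2 units. In DEN tumors 4 of the 15 rose and 1 fell, and in MYC tumors 6 fell. Of these 15 genes, 5 had a difference called higher (F2, Ambp, Fgb, Apoa1 and Ahsg), up to 0.40 for F2. The third MYC tumor array stood somewhat apart: its median correlation with the other arrays of its group was 0.9795, against 0.9885 to 0.9905 for the other MYC tumors. Results that rest on it are given with and without it.

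Despite the stated matching, 3 of the 9 control livers stood apart in sex-biased liver genes. The mean over 16 female-biased genes was 8.33 and 9.18 in DEN controls 1 and 3 and 10.04 in LT and MYC control 3, against 6.04 to 7.20 in the other 6. Xist, the RNA that silences an X chromosome in females, read 12.02 in DEN control 3 and 12.20 in LT and MYC control 3, 5.41 in DEN control 1 and 3.54 to 5.35 in the 18 arrays compared. Uty, a gene of the Y chromosome, read 4.37 in DEN control 3 and 3.57 in LT and MYC control 3. It read 8.27 in DEN control 1 and 8.07 to 8.31 in the other 6. By these genes DEN control 3 and LT and MYC control 3 read as female, and DEN control 1 as male. The 3 controls that stood apart do not enter the difference of changes itself, only its shared estimate of spread: without them 2743 genes (14.6%) were called. Values against controls are given for all 9, and also without these 3 where that ends or makes a call or moves a value or count by over 1.5 times.

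Of 18820 genes, 2841 (15.1%) had a difference of changes at an adjusted p under 0.05. It was higher in DEN for 1340 genes (7.12%) and lower for 1501 (7.98%), and 841 genes (4.47%) differed at least 2-fold. The tumor change itself was called for 6068 genes in DEN (32.2%, of which 15.6% rose and 16.7% fell) and for 4106 in MYC (21.8%, of which 11.5% rose and 10.3% fell). With each array centred on its own median, the share of rises among the called genes went from 48.3% to 32.4% in DEN and from 52.8% to 33.7% in MYC. That centring moved the share of higher calls in the difference of changes only from 47.2% to 49.3%, and it moved the median difference over all genes by 0.002.

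Both models called 1645 genes in the same direction, and in 151 of these the size of the change differed. Another 251 genes were called in opposite directions: 111 rose in DEN and fell in MYC tumors, and 140 fell in DEN and rose in MYC tumors. The most common classes were genes called in one model and missing the threshold in the other. In DEN alone, 792 rose and 688 fell, and in MYC alone 497 rose and 346 fell. Tumor arrays made the difference for 1845 of the 2841 genes (64.9%), both kinds for 704 (24.8%) and NTL arrays for 292 (10.3%). A second split measured tumors and NTL from the controls of their own experiment, under the same limits of 70% and 30%. Its tumor part was the difference against controls, taken as a share of the same difference against NTL. By this split from controls, tumor arrays made the difference for 1682 genes, both kinds for 727 and NTL arrays for 432. With controls as the baseline the difference was called for 3600 genes (19.1%), higher for 9.41% and lower for 9.72%, and without the 3 controls named above for 2647 (14.1%).

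**Figure D1:**
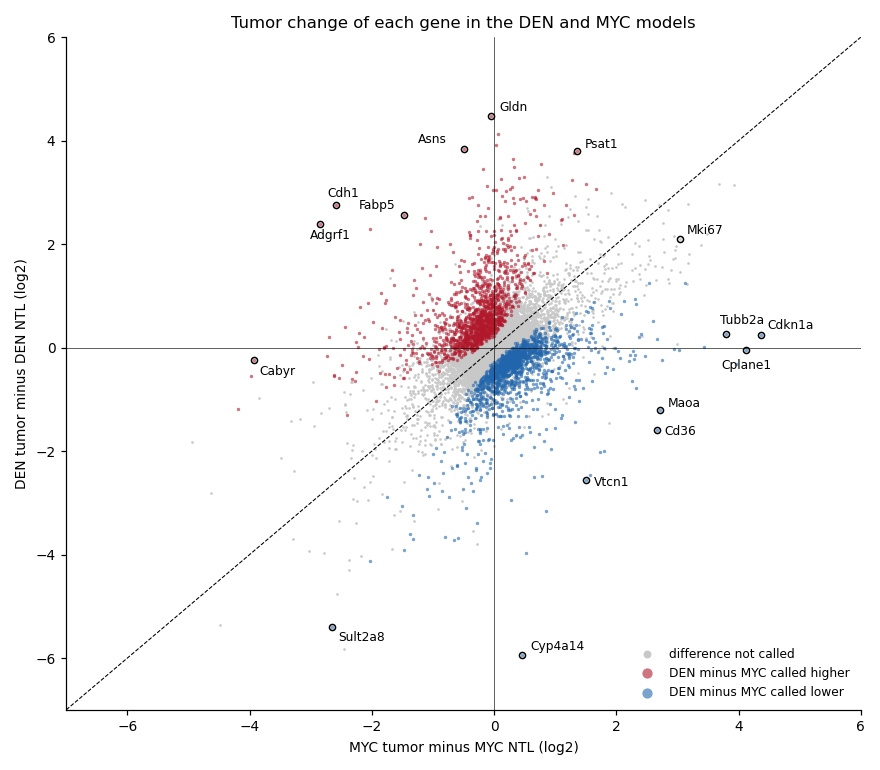
Each point is 1 of 18820 genes, with the MYC tumor minus NTL change on the x axis and the DEN tumor minus NTL change on the y axis, both in log2 units. Grey genes did not pass the test of the difference, red genes (1340) were higher and blue genes (1501) lower in DEN, and the dashed line marks equal changes. Cdh1 and Adgrf1 lie far above the line at the upper left, and Cyp4a14, Cdkn1a and Cplane1 far below it.

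The largest opposite change belonged to Cdh1, which encodes E-cadherin, the adhesion protein of epithelial junctions. DEN tumors gave 10.14, 9.89, 10.46, 10.46 and 10.04, and DEN NTL 7.26, 7.47, 7.55, 7.46 and 7.45. MYC tumors gave 5.97, 4.39, 9.23, 5.38 and 6.61, and MYC NTL 8.81, 8.92 and 8.96. Every DEN tumor lay above every DEN NTL array, while 4 of the 5 MYC tumors lay below their NTL and the third lay above it. Cdh1 rose by 2.76 in DEN and fell by 2.58 in MYC, a difference of 5.34 ± 0.93 (SE, adjusted p = 0.00018), or 40.5-fold, and 6.07 without MYC tumor replicate 3. Tumor arrays made it: the gap was 3.88 in tumors and -1.46 in NTL. Against controls it was 3.14, and by the split from controls both kinds of array shared the difference of 5.34.

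Adgrf1, an adhesion G protein-coupled receptor, also rose in DEN and fell in MYC tumors, with a difference of 5.25 ± 0.98 (adjusted p = 0.000391). Its DEN tumors ran from 7.13 to 9.96 over NTL of 5.92 to 6.78, and its MYC tumors from 4.74 to 7.04 under NTL of 8.43 to 8.59, with no overlap in either model. Here both kinds of array shared the difference, 3.08 in tumors and -2.18 in NTL.

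Fabp5, a carrier of fatty acids that adult hepatocytes hold at low level, gave 8.90, 10.04, 10.54, 10.48 and 9.64 in DEN tumors and 7.84, 6.93, 7.40, 7.17 and 7.42 in DEN NTL. In MYC tumors it gave 6.83, 7.46, 7.28, 5.83 and 6.88, and in MYC NTL 8.56, 7.97 and 8.45. The groups did not overlap in either model, and tumor arrays made the difference of 4.04 ± 0.53 (adjusted p = 4.36e-06). Tent5a, of a family of poly(A) polymerases, followed with 3.17 ± 0.56, made by tumor arrays. Wsb1, a SOCS box protein that recruits ubiquitin ligases, had 2.62 ± 0.63, made by both.

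In the other direction, Maoa, which breaks down amine transmitters at the mitochondrial surface, fell by 1.20 in DEN and rose by 2.71 in MYC tumors. Its MYC tumors read 9.86, 8.91, 7.29, 8.83 and 9.25 over NTL of 6.14, 6.01 and 6.20, and its DEN tumors 6.03, 4.67, 5.54, 5.45 and 5.12 under NTL of 6.45, 6.60, 6.73, 6.59 and 6.43. Again no arrays overlapped within a model, and tumor arrays made the difference of -3.91 ± 0.44 (adjusted p = 5.68e-07), also by the split from controls.

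Vtcn1, a surface ligand that restrains T cells, had a difference of -4.05 ± 0.43, with DEN tumors at 4.60 to 6.57 under NTL of 7.47 to 8.27 and MYC tumors at 7.33 to 8.43 over NTL of 6.16 to 6.51. Tumor and NTL arrays shared it, and by the split from controls tumor arrays made it. Serpinb1a, an inhibitor of neutrophil elastase, and Crybg2 also fell in DEN and rose in MYC, with differences of -2.77 ± 0.60 and -2.46 ± 0.48 shared by both kinds of array. With controls as the baseline the Serpinb1a difference turned to 0.70. The controls shared by LT and MYC lay at 7.18 to 9.28, above both MYC groups.

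Cd36, the fatty acid receptor and translocase, is the opposite gene that NTL arrays made. MYC NTL held 7.85, 8.30 and 8.26, while DEN NTL held 10.90, 11.42, 11.22, 11.26 and 11.09 and MYC tumors 10.86, 11.08, 10.73, 10.36 and 10.94. DEN tumors were spread over 10.85, 9.63, 8.62, 10.09 and 8.73. The MYC NTL arrays lay below every other array, the control livers of both experiments included (10.40 to 11.51). The difference was -4.26 ± 0.46 (adjusted p = 2.43e-07), of which NTL gave 3.04 and tumors -1.22, and against controls it was -1.37.

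**Figure D2:**
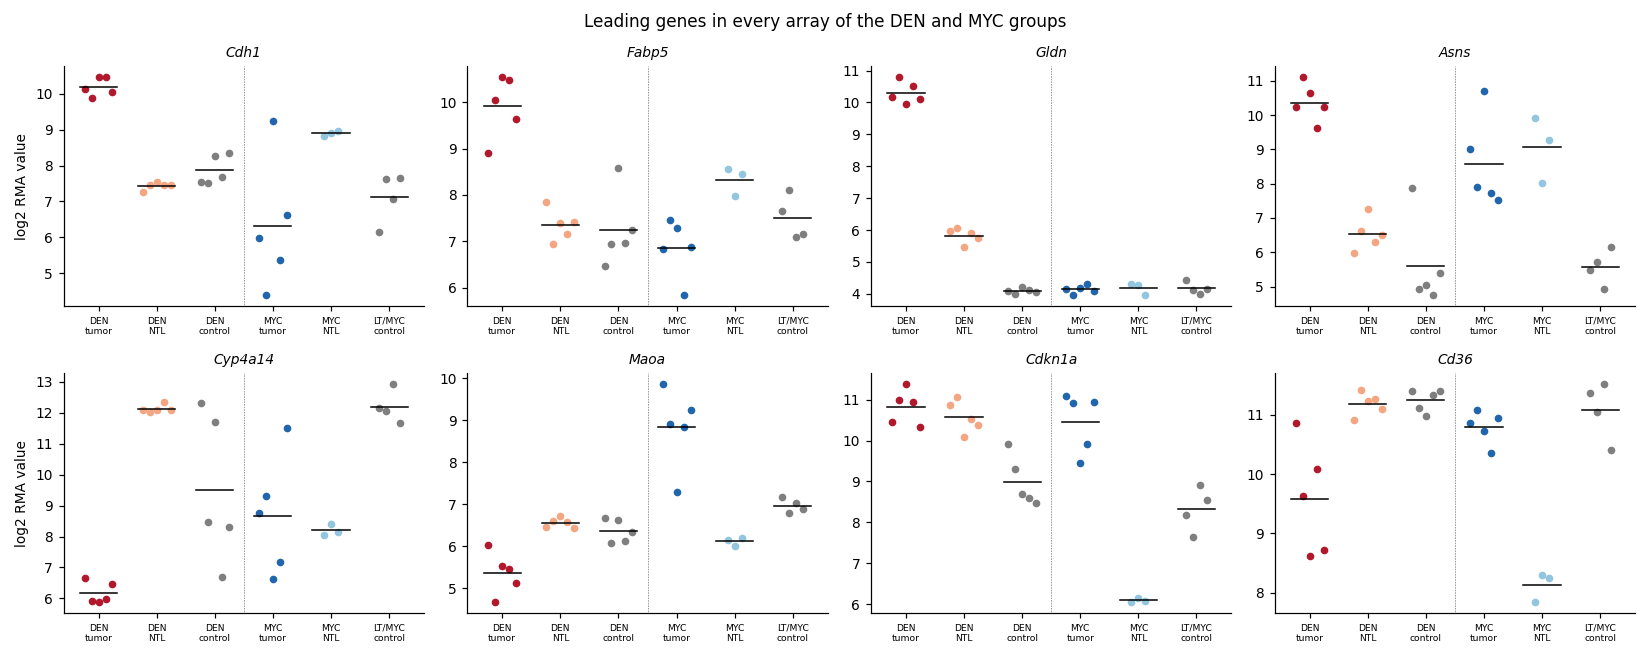
Log2 values of 8 leading genes in every array of the DEN groups (left of the dotted line) and of the MYC groups and their controls (right). Each point is 1 array and each bar a group mean. Cdh1, Fabp5, Gldn and Maoa separate by tumor arrays, while Cdkn1a and Cd36 separate by the 3 MYC NTL arrays, at 6.05 to 6.15 and 7.85 to 8.30.

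Gldn, whose difference tumor arrays made, encodes gliomedin, an extracellular protein known from the nodes of Ranvier of nerve. It stood at 10.18, 10.79, 9.95, 10.51 and 10.11 in DEN tumors and at 5.96, 6.08, 5.46, 5.90 and 5.74 in DEN NTL. MYC tumors gave 4.15, 3.98, 4.18, 4.32 and 4.09 and MYC NTL 4.32, 4.29 and 3.95, which overlapped and lay near the first quartile of an array (4.13 to 4.24), where a value is close to the lower limit. The difference was 4.53 ± 0.20 (adjusted p = 3.0e-16). DEN NTL also lay above every control and MYC array, so the gap in tumors, 6.17, exceeded the difference itself.

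Klrb1b, a receptor of the natural killer cell family, had the same form. DEN tumors held 9.08, 11.63, 10.16, 11.70 and 8.84, DEN NTL 7.02, 7.37, 6.27, 7.16 and 6.36, and the other groups at most 4.58. MYC tumors, at 3.45 to 3.79, lay under the first quartile of an array, close to the lower limit, which can shrink the gap. The difference was 3.62 ± 0.55, made by tumor arrays with a gap of 6.60. Of 27 measured natural killer and T cell genes 0 were called higher and 1 lower (Cd3e, adjusted p = 0.0663 without MYC NTL replicate 1), and the mean of the list lay at 4.78 to 5.11 in DEN tumors and 4.65 to 4.82 in MYC tumors. Clec2h, a lectin of the family that such receptors bind, had a difference of 3.43 ± 0.88 from a fall of 3.98 in MYC tumors. Its MYC tumors read 4.80 to 5.13 and MYC NTL 8.44 to 9.15, and by the split from controls NTL arrays made the difference.

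Tumor arrays also made the differences of Tmem54 (4.06 ± 0.48), Cdh17 (3.89 ± 0.79) and the Golgi membrane protein gene Golm2 (3.65 ± 0.38). Cdh17, the liver-intestine cadherin, was uneven across DEN tumors, at 5.36, 6.81, 10.03, 9.81 and 9.66 against 4.28 to 4.68 in NTL, and without DEN tumor replicate 1 its difference grew to 4.63. Rdh16f2, of the retinol dehydrogenase family, reached 10.66 to 11.52 in DEN tumors over NTL of 8.74 to 9.22. Its MYC tumors read 7.26, 6.77, 10.45, 6.52 and 7.34 beside NTL of 9.52 to 9.86, so the third MYC tumor lay apart. The difference was 4.32 ± 1.00 with that array and 5.02 without it.

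The lists of genes that follow were chosen with earlier results of these data known. Over all genes, 7.12% had a difference called higher and 7.98% lower, and the counts of each list stand beside these shares. Several lists also hold leading genes of this comparison, so counts and medians describe the lists and are no independent evidence. Among these are Asns (serine and asparagine synthesis), Cyp4a14 and Cyp2c38 (P450 enzymes), Cdkn1a (p53 targets) and Fabp5 (recruited macrophages). The list of fetal liver genes and tumor markers holds Gldn and Cdh17. Of its 27 measured members, 18 rose in DEN tumors and 5 in MYC tumors, 11 had a difference called higher and 0 lower, and tumor arrays made all 11. The median difference was 1.51, against -0.0154 over all genes, with medians of 2.15 in DEN and 0.324 in MYC. Against controls 17 members were called higher and 1 lower, and without the 3 controls that stood apart 15 and 0.

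Afp, alpha-fetoprotein, the serum protein of the fetal liver, read 6.44, 9.96, 11.96, 11.91 and 11.36 in DEN tumors and 6.53, 7.18, 6.76, 6.82 and 6.64 in DEN NTL. MYC tumors gave 6.14, 5.54, 5.22, 5.83 and 5.44 and MYC NTL 4.88, 4.69 and 5.02. DEN tumor replicate 1 lay below its NTL and the other 4 lay far above. The difference was 2.77 ± 0.85 (adjusted p = 0.0238), 3.74 without that tumor, and its adjusted p went to 0.0579 without MYC NTL replicate 3. Gpc3, glypican-3, a surface proteoglycan of fetal liver, followed the same tumors with 6.35, 9.41, 12.19, 11.76 and 12.05, and its difference of 2.17 ± 1.14 did not pass (adjusted p = 0.221). Without DEN tumor replicate 1 it was 3.17, and without MYC tumor replicate 1 it was 2.91. Igf2, the fetal growth factor, stood out in 1 DEN tumor only (10.02, others 5.81 to 7.08), with a difference of 0.25 ± 0.82, and -0.49 without that tumor, replicate 2.

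Golm1, a Golgi glycoprotein used as a serum marker, was more even. DEN tumors held 8.37, 9.48, 8.77, 9.96 and 8.76 over NTL of 5.57 to 6.16, and MYC tumors 5.04, 4.83, 7.14, 5.10 and 5.42 beside NTL of 5.01 to 5.19. The difference was 2.86 ± 0.54. The other members called were Gldn, Cdh17, Sox9, Spink1, Akr1c18, Tspan8, Bex1, Csn3 and Prom1, between 1.91 and 4.53.

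Genes of bile duct and ductular cells were higher in DEN as well. All 17 measured members had a positive difference, 7 of them called, and tumor arrays made all 7. The median was 0.925, and 6 members rose in DEN tumors while 0 rose and 2 fell in MYC tumors. Sox9, a transcription factor of ductal progenitors, gave 9.56, 9.55, 8.95, 8.96 and 9.00 in DEN tumors over NTL of 7.01 to 7.48, and 6.20, 5.61, 7.33, 5.99 and 6.22 in MYC tumors beside NTL of 6.41 to 6.72. Its difference was 2.17 ± 0.36 (adjusted p = 9.93e-05). Prom1, a membrane protein of progenitor cells, had 3.17 ± 0.67, and Itga3, an integrin that binds laminin, 2.21 ± 0.33.

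Defining keratins of bile duct epithelium did not pass. Krt19 lay between 4.58 and 5.49 in DEN tumors and 5.02 and 5.34 in DEN NTL, with a difference of 0.37 ± 0.24 (adjusted p = 0.34), and Krt7 had 0.62 (adjusted p = 0.156). Krt23 was called at 2.34 ± 0.74, but its DEN tumors split into 8.63, 8.52 and 7.04 above NTL and 5.06 and 4.73 below it. Its adjusted p was 0.0881 without MYC NTL replicate 2.

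Serine and asparagine synthesis is switched on by ATF4, a transcription factor of amino acid and endoplasmic reticulum stress, which binds with a partner on amino acid response elements. Of 21 measured targets, 12 rose in DEN tumors and 4 in MYC tumors, 6 had a difference called higher and 0 lower, and the median difference was 0.525. Tumor arrays made 4 of the 6, and both kinds the others. Between 4 and 7 members were called when single arrays were left out.

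Asns, asparagine synthetase, read 10.22, 11.10, 10.63, 9.63 and 10.24 in DEN tumors and 5.97, 6.62, 7.26, 6.31 and 6.50 in DEN NTL. MYC tumors gave 9.01, 7.91, 10.70, 7.73 and 7.53 and MYC NTL 9.91, 8.02 and 9.27. DEN groups did not overlap, MYC groups did, and MYC NTL was as high as MYC tumor. The difference was 4.32 ± 0.82 (adjusted p = 0.000492), made by tumors (1.79) and NTL (-2.54) together. Against controls, which lay between 4.75 and 7.87, it was 1.76 and did not pass (adjusted p = 0.121), and 2.56 (adjusted p = 0.0236) without the 3 controls that stood apart.

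Psat1, the aminotransferase of serine synthesis, was made by tumor arrays. DEN tumors held 8.82, 9.53, 8.93, 10.59 and 8.99 over NTL of 5.37 to 5.91, and MYC tumors 5.67, 5.96, 7.99, 6.52 and 5.94 over NTL of 5.01 to 5.11. It rose in both, by 3.80 and 1.36, with a difference of 2.43 ± 0.45. Trib3, a pseudokinase that ATF4 induces, had 1.88 ± 0.44, and Atf4 itself 0.68 (adjusted p = 0.005). Atf3, a stress-induced repressor, rose by 3.06 in DEN and by 1.67 in MYC tumors. Its difference of 1.40 ± 0.48 (adjusted p = 0.0461) was close to the threshold: it lost the call without any 1 of 14 arrays, with the highest adjusted p, 0.124, without MYC NTL replicate 1. Slc7a11, the cystine carrier, had -1.23 (adjusted p = 0.257).

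The promoter sequences of Asns and Atf3 are shown because both genes were called in this list and hold the core of the element, TGATGNAA. The core is in capitals here, on either strand. Each line gives the 250 bases before the RefSeq transcript start in assembly GRCm38.p6, read along the gene: Asns at chr6:7693210-7693459 on the minus strand, and Atf3 at chr1:191183334-191183583 on the minus strand.
Asns: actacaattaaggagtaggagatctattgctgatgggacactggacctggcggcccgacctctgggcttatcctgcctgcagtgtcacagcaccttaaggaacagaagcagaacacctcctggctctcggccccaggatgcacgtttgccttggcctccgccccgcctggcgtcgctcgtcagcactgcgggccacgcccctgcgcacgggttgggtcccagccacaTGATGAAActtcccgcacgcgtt
Atf3: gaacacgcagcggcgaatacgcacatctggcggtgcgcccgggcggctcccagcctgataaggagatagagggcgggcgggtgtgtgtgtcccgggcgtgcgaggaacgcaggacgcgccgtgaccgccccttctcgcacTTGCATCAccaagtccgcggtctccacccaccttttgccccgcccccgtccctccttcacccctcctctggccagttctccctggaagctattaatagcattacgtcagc

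The first base of the element lies 23 bases before the start in Asns and 110 before it in Atf3. Within windows of 300 bases, which add the first 50 transcribed bases, 7 of 19 list members with a promoter held these letters on either strand (36.8%), against 4.51% of 27025 genes. A match says only that the letters are there, and no factor's binding was measured in these arrays.

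Among genes lower in DEN than in MYC, Cyp4a14, a P450 that hydroxylates the end carbon of fatty acids, had the largest difference of any named gene, -6.40 ± 1.19 (adjusted p = 0.000371), or 84.6-fold. DEN tumors held 6.65, 5.90, 5.88, 5.99 and 6.48 and DEN NTL 12.08, 12.03, 12.07, 12.33 and 12.09. MYC tumors ran over 8.76, 9.29, 6.62, 7.17 and 11.51, and MYC NTL over 8.06, 8.41 and 8.15. It fell by 5.94 in DEN tumors, and MYC NTL lay below DEN NTL by 3.91, so both kinds of array made the difference.

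The second baseline did not carry this value. Control livers of the DEN experiment were themselves spread over 12.32, 8.47, 11.71, 6.68 and 8.29, while LT and MYC controls held 12.15, 12.05, 12.92 and 11.66. The high DEN controls, replicates 1 and 3, are those with high female-biased genes. Against controls the difference was 0.21 (adjusted p = 0.932), and 1.65 (adjusted p = 0.288) without the 3 controls that stood apart. Leaving out MYC tumor replicate 5, the highest of its group, moved the difference against NTL to -5.69.

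Fitm1, which helps form lipid droplets, was the next largest by size, at -4.49 ± 1.01. Its DEN tumors lay at 4.72 to 7.58 under NTL of 9.29 to 10.40, and its MYC tumors at 7.11 to 11.03 spanned NTL of 8.66 to 9.19. Tumor arrays made the difference against NTL. It was -0.63 against controls, and -1.10 without the 3 controls that stood apart. Nat8, an acetyltransferase that finishes mercapturic acids, fell by 3.16 in DEN tumors with no overlap and had -4.01 ± 1.04. Slc8a1, the sodium-calcium exchanger (-4.02 ± 1.09), Mtnr1a, a melatonin receptor (-3.75 ± 0.94), and the P450 Cyp2c38 (-3.79 ± 1.06) also fell in DEN tumors. Tumor and NTL arrays shared the differences of these last 4 genes. Without MYC tumor replicate 3 that of Cyp2c38 was -4.64.

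PPAR-alpha is the nuclear receptor that turns on fatty acid oxidation in the fasting liver. Of 25 measured targets and oxidation enzymes, 15 had a difference called lower and 0 higher, with a median of -0.749. In DEN tumors 16 fell and 1 rose, and in MYC tumors 7 fell and 3 rose. Tumor arrays made 6 of the 15 differences, both kinds 6 and NTL arrays 3. Against controls 12 were called lower and 2 higher.

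Acaa1b, a thiolase of the peroxisome, was made by tumor arrays: DEN tumors held 8.81, 7.20, 7.01, 7.51 and 7.27 under NTL of 10.68 to 11.11, while MYC tumors at 8.97 to 10.49 overlapped MYC NTL at 9.93 to 10.46. Its difference was -3.11 ± 0.40 (adjusted p = 3.1e-06). Acot1, which frees fatty acids from coenzyme A, had -3.16 ± 0.58, shared by both. The mitochondrial steps Acadm (-1.04), Cpt2 (-0.93), Eci1 (-0.96), Hadha (-0.39) and Acaa2 (-0.34) were all called lower. Ppara itself had 0.49 (adjusted p = 0.087) and Cpt1a, the carnitine gate of the mitochondrion, 0.57 (adjusted p = 0.077).

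NTL arrays made the differences of Pdk4, Acot2 and Crat. Pdk4, the kinase that closes pyruvate dehydrogenase, read 5.67, 5.90 and 5.25 in MYC NTL and 10.16, 9.92, 7.57, 8.89 and 8.70 in MYC tumors. DEN tumors at 7.09 to 9.58 and DEN NTL at 7.88 to 8.94 overlapped fully. The difference was -3.44 ± 0.71 (adjusted p = 0.00108), and all control livers lay at 7.84 to 8.88, above MYC NTL. Crat, carnitine acetyltransferase, had -1.60 ± 0.28 in the same way, with MYC NTL at 8.68 to 8.90 and every other array at 9.59 or above, and 0.16 against controls.

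Of 48 measured P450 and conjugation enzymes, 37 fell in DEN and 20 in MYC tumors, and the difference was called lower for 15 and higher for 3 (median -0.851). Tumor arrays made 13 of these 18 and both kinds 5. Near-identical paralogs of these families can share probes, so single members are uncertain.

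Sult2a8, a sulfotransferase of male liver, fell in both models. DEN tumors held 6.92, 5.28, 5.32, 6.20 and 6.29 under NTL of 11.16 to 11.73, and MYC tumors 9.59, 10.00, 8.88, 10.35 and 8.15 under NTL of 12.02 to 12.07. It fell by 5.40 in DEN and by 2.66 in MYC, with a difference of -2.74 ± 0.64 made by tumor arrays. The carboxylesterases Ces1g (-3.07), Ces3a (-2.64) and Ces1e (-2.10) and the arachidonate epoxygenase Cyp2j5 (-2.16) were called and tumor-made as well. Cyp2b10, the classic target of the receptor CAR, fell by 5.37 in DEN and by 4.48 in MYC tumors, with a difference of -0.89 that did not pass (adjusted p = 0.593). Cyp2d40 went the other way (1.64 ± 0.41) and fell by 2.28 in MYC tumors.

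Of 24 measured bile acid genes, 18 fell in DEN and 6 in MYC tumors, and the difference was called lower for 7 and higher for 2 (median -0.947). Abcb11, the bile salt pump, had -1.11, Abcb4, which moves phospholipid into bile, -1.24, and Akr1d1, a reductase of bile acid synthesis, -1.39, and tumor arrays made all 3. Slco1a4, an uptake carrier, had -2.88 ± 0.75, shared by both. The higher pair was Abcg5 (1.49 ± 0.39) and Abcg8 (1.31), whose proteins together pump sterols into bile.

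**Figure D3:**
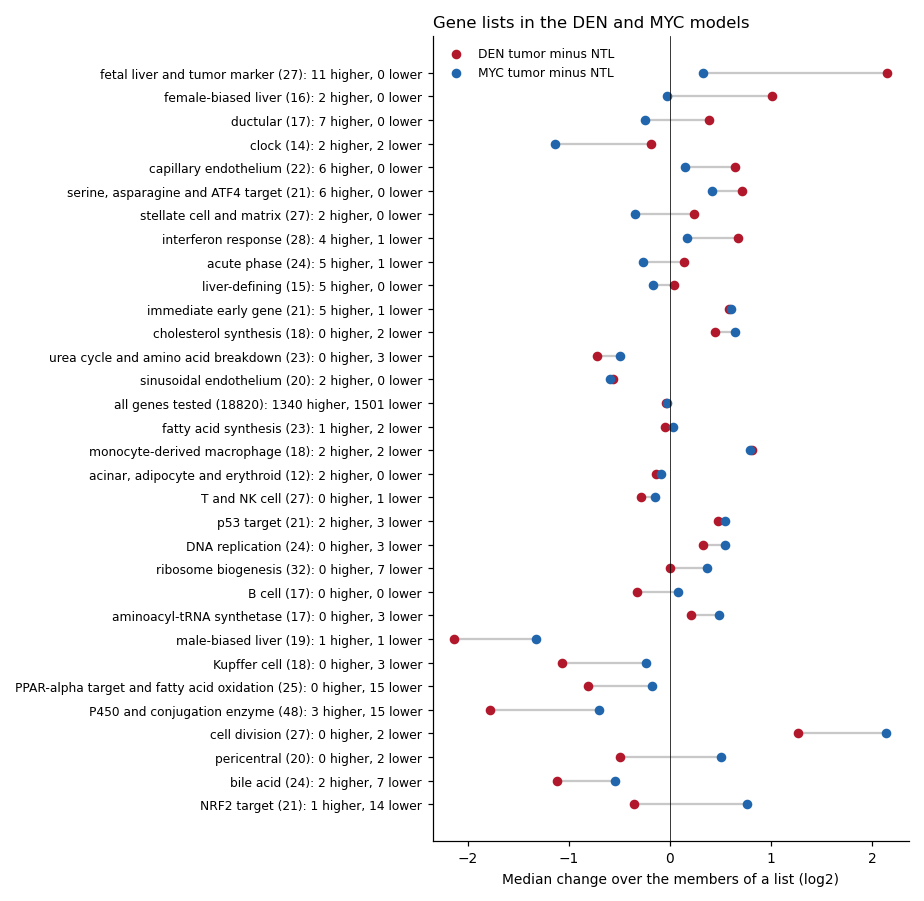
Median tumor minus NTL change (log2) over the measured members of each gene list in DEN (red) and MYC (blue), with the number of members and of those whose difference was called higher or lower. Lists are ordered by the median difference, from fetal liver and tumor markers at the top (2.15 in DEN, 0.324 in MYC) to NRF2 targets at the bottom (-0.352 in DEN, 0.763 in MYC).

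NRF2, the sensor of oxidative stress, raises genes of glutathione and quinone metabolism through the antioxidant response element. Of 21 measured targets, 14 had a difference called lower and 1 higher, with a median of -1.32. In DEN tumors 10 fell and 1 rose, and in MYC tumors 9 rose and 0 fell. Tumor arrays made 5 of the 15, both kinds 9 and NTL arrays 1.

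The count depends on the baseline and on single arrays. Against controls 3 members were called lower (1 without the 3 controls that stood apart), and without MYC NTL replicate 2 or 3 the count was 9. The list mean in MYC tumors was 10.59, 10.28, 8.91, 9.60 and 10.28 against 9.09 to 9.13 in MYC NTL, so the third MYC tumor lay below its NTL, and 16 of the 21 members had their lowest MYC tumor value there. In DEN tumors it lay at 9.04 to 9.40, under 9.54 to 9.84 in NTL. Without that MYC tumor 17 members were called lower.

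Txnrd1, thioredoxin reductase, gave 10.08, 9.67, 8.95, 8.81 and 9.82 in MYC tumors and 8.95, 8.91 and 8.90 in MYC NTL. DEN tumors gave 8.67, 8.86, 8.87, 8.60 and 8.71 and DEN NTL 9.21, 9.33, 9.20, 9.18 and 9.29. DEN tumors lay wholly below their NTL, while 1 MYC tumor lay below its NTL. The difference was -1.04 ± 0.23 (adjusted p = 0.00172), shared by both kinds of array.

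Me1, malic enzyme, which makes NADPH, had -2.31 ± 0.44, made by DEN tumors at 8.24 to 9.76 under NTL of 10.68 to 11.76. The glutathione transferases Gstm3 (-1.54) and Gstm4 (-1.54) and Ugdh (-1.51), which makes UDP-glucuronic acid, were called lower. Nqo1, the quinone reductase, read 8.31, 8.04, 5.68, 6.73 and 8.50 in MYC tumors beside NTL of 6.01 to 6.10, the third lying below NTL. Its difference of -2.02 ± 0.70 (adjusted p = 0.0479) lost its call without DEN tumor replicate 5 (adjusted p = 0.098) and without the 3 controls that stood apart (0.0574). Abcc4, an export pump, had -2.34 ± 0.81 (adjusted p = 0.0483), 0.112 without MYC NTL replicate 1. Hmox1, heme oxygenase, was the member that NTL arrays made (-1.43 ± 0.30), with MYC NTL at 7.79 to 8.07 and DEN NTL at 8.95 to 9.55.

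The promoters of Txnrd1 and Ugdh are shown because both genes were called in this list and hold the core of the antioxidant response element, TGACNNNGC, in capitals on either strand. They are the 250 bases before the RefSeq start in GRCm38.p6: Txnrd1 at chr10:82858956-82859205 on the plus strand, 1 of 3 promoters listed for the gene, and Ugdh at chr5:65435843-65436092 on the minus strand.
Txnrd1: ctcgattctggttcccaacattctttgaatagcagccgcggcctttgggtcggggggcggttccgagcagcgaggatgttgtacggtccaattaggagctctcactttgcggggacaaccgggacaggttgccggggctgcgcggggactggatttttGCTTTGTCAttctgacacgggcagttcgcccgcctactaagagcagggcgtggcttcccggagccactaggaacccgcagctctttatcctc
Ugdh: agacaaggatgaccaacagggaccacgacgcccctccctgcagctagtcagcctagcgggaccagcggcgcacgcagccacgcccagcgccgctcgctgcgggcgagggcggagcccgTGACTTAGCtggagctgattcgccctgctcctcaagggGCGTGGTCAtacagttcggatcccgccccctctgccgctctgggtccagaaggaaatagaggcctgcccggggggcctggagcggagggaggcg

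These letters stood in the 300-base windows of 7 of 18 NRF2 targets with a promoter (38.9%) and of 14.0% of all 27025 genes. They also stood in 7 of the 19 members of the ATF4 list (36.8%).

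Genes of cell division rose in both models. Of 27 measured genes of cell division, 25 rose in DEN and 27 in MYC tumors, and 0 had a positive difference. The difference was called lower for 2, Cdc20 and Aurka, a share near the 7.98% of all genes. The median was -0.924 (1.27 in DEN and 2.14 in MYC). The list mean was 5.49 to 7.35 in DEN tumors and 6.59 to 8.03 in MYC tumors, with NTL at 4.90 to 5.35 and 4.83 to 5.02.

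Mki67, the proliferation antigen, read 8.68, 7.92, 6.65, 9.18 and 7.25 in DEN tumors and 8.48, 8.55, 10.04, 8.35 and 8.00 in MYC tumors. The tumors of the models overlapped, and the difference of -0.93 ± 0.54 did not pass (adjusted p = 0.284). Cdc20, the activator of the anaphase-promoting complex, had DEN tumors at 6.98, 6.46, 5.61, 7.68 and 5.71 and MYC tumors at 6.96, 7.85, 8.87, 7.25 and 7.26. Tumor arrays made its difference of -1.37 ± 0.47 (adjusted p = 0.0445), which lost its call without any 1 of 12 arrays, among them MYC NTL replicate 2 (adjusted p = 0.0975).

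The count of 2 moved with single arrays and with weighting. Without DEN tumor replicate 4, the highest DEN tumor for Mki67, 16 of the 27 were called lower, and without MYC tumor replicate 3, any of the MYC NTL arrays or the 3 controls that stood apart the count was 0. It was 19 with weights per array and 11 with weights per group. The brighter of the probe sets shared by Nusap1, a spindle protein named in the title of the series, and its neighbour Oip5 had a difference of -1.42 ± 0.47 (adjusted p = 0.0396). DEN tumors held 7.11, 6.98, 5.62, 7.82 and 5.92 and MYC tumors 7.71, 7.96, 8.74, 7.64 and 7.33, and tumor arrays made it. The dimmer of these probe sets did not pass, and neither was refitted with single arrays left out. Since the probe sets carry both names, the value cannot be given to either gene alone.

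Ribosome production is the program for which MYC is best known. Of 32 measured genes, 19 rose in MYC tumors and 0 fell, while in DEN tumors 5 rose and 3 fell. The difference was called lower for 7 and higher for 0, tumor arrays made all 7, and the median was -0.281. Between 3 and 10 members were called when single arrays were left out (3 without MYC NTL replicate 1 or 2, and 4 without MYC tumor replicate 3), and 23 against controls (14 without the 3 that stood apart).

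Nhp2, of the snoRNA particles that guide pseudouridylation, read 8.43, 8.60, 8.30, 8.70 and 8.31 in MYC tumors and 7.69, 7.51 and 7.09 in MYC NTL. DEN tumors gave 7.17, 6.85, 7.18, 7.01 and 7.04 and DEN NTL 7.66, 7.41, 7.19, 7.50 and 7.46. Arrays did not overlap in either model, and the difference was -1.44 ± 0.23 (adjusted p = 5.22e-05). Dkc1, the pseudouridine synthase of the same particle, had -0.61, and Polr1b, a subunit of RNA polymerase I, -0.86 ± 0.28 (adjusted p = 0.037, and 0.0957 without MYC NTL replicate 1). Fbl, the methylase of ribosomal RNA, had -0.34 and Nop2 -0.49 ± 0.16, the latter at 0.119 without the same array.

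The Myc probe set is that of the mouse gene, and the labels do not say whether the transgene matches it. It gave 8.88, 9.71, 9.56, 10.52 and 9.60 in MYC tumors and 9.48, 6.42 and 7.25 in MYC NTL, with a difference of -1.06 ± 0.81 (adjusted p = 0.434). It was -1.95 without MYC NTL replicate 1 and -0.42 without MYC NTL replicate 2. Synthetases that charge transfer RNA (17 measured) rose for 11 members in MYC and 6 in DEN, with 3 differences called lower, led by Farsa (-0.72 ± 0.11). Of 24 DNA replication genes, 19 rose in MYC and 11 in DEN, with 3 called lower, led by Prim1, the primase (-1.36 ± 0.27), and Mcm7, of the replicative helicase (-1.05 ± 0.17). Cplane1, a gene of cilium assembly, rose by 4.13 in MYC tumors, which read 10.37, 9.39, 9.85, 11.47 and 8.23 over NTL of 5.66 to 5.79, while DEN tumors and NTL overlapped at 6.17 to 7.04. Its difference was -4.18 ± 0.48 and tumor arrays made it.

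NTL arrays also made the difference of Cdkn1a, which encodes p21, the cell cycle inhibitor that p53 induces. MYC NTL held 6.05, 6.15 and 6.08, and MYC tumors 11.08, 10.91, 9.45, 9.91 and 10.94. DEN tumors held 10.45, 11.00, 11.38, 10.95 and 10.34 and DEN NTL 10.87, 11.07, 10.08, 10.54 and 10.38. DEN groups overlapped fully, and MYC NTL lay below every other array, control livers (7.63 to 9.91) included. The difference was -4.13 ± 0.63 (adjusted p = 4.02e-05), or 17.5-fold, of which NTL gave 4.49 and tumors 0.36. With controls as the baseline it was -0.31 (adjusted p = 0.79).

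Other p53 targets did not share this size. Of 21 measured, 10 rose in DEN and 13 in MYC tumors, and the difference was called lower for 3 (Cdkn1a, Ccng1 and Fas) and higher for 2 (Btg2 and Tap1). Mdm2, the p53 ligase, had -0.34 (adjusted p = 0.26). Btg2, an antiproliferative gene, rose in both, with DEN tumors at 10.35 to 11.26 over NTL of 7.70 to 8.58, and its difference of 1.57 ± 0.34 was made by tumor arrays. Against controls the count called lower was 0.

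Cabyr, a calcium-binding protein of the sperm tail, gave 9.65, 9.40 and 9.31 in MYC NTL and at most 6.64 in every other array of the groups compared here, DEN and MYC tumors included. Its difference of 3.71 ± 0.44 became -0.43 against controls. Cyp46a1, which hydroxylates cholesterol, read 9.70, 9.82 and 10.04 in MYC NTL, 5.38 to 6.11 in MYC tumors and 6.36 to 8.00 in the matching controls. Its difference was 3.00 ± 0.32, and 0.55 against controls. Tubb2a, a beta-tubulin, had -3.54 ± 0.60, with MYC NTL at 5.71 to 6.38 and every other array at 6.65 or above, and 1.06 against controls.

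Pfkfb3, which makes the activator of glycolysis fructose bisphosphate, read 9.03 to 9.52 in MYC NTL and fell by 2.06 in MYC tumors. Its difference of 2.92 ± 0.81 became 0.27 against controls, and 0.425 without the 3 controls that stood apart. Ccdc152 (2.37 ± 0.32) stood at 6.02 to 6.98 in MYC NTL and at most 5.05 in the other 3 groups. Acnat2, which conjugates fatty acids with amino acids, was low there at 6.07 to 6.77 and rose by 2.75 in MYC tumors, with a difference of -2.99 ± 0.82. NTL arrays made all 3.

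The MYC NTL arrays stood outside other non-tumor liver at many genes. At 1354 of 18820 genes (7.19%) all 3 lay above or all below each of the 14 DEN NTL and control arrays. Among the 292 genes assigned to NTL arrays, this held for 173 (59.2%), a share read from the same arrays that made the assignment. For the 5 DEN NTL arrays against the 12 others it held for 131 genes (0.696%), and for 13 of the 292. By chance, all 5 arrays of a group fall outside less often than all 3 of a smaller group. These shares therefore cannot be compared between the groups. Directly compared, DEN NTL and MYC NTL differed at 1212 genes (6.44%, of which 3.7% were higher and 2.74% lower in DEN) and the control livers of the experiments at 513 (2.73%, with 1.48% higher and 1.24% lower). The tumors differed at 6256 (33.2%, with 16.8% higher and 16.5% lower). Centred arrays turned the share of higher calls from 57.5% to 20.9% in NTL and from 50.5% to 29.6% in tumors.

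**Figure D4:**
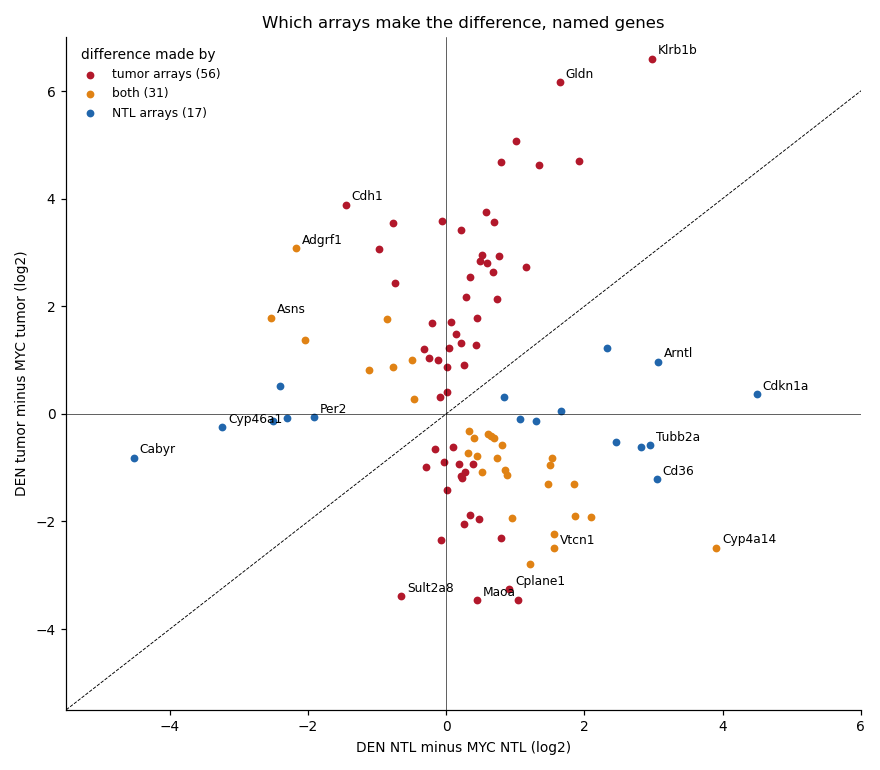
For the 104 named genes with a called difference, the DEN minus MYC gap in NTL (x axis) is set against that in tumors (y axis), both in log2 units. Red genes (56) owe their difference to tumor arrays, orange genes (31) to both and blue genes (17) to NTL arrays, and points on the dashed line would have no difference. Cdkn1a lies at 4.49 and Cabyr at -4.53 on the NTL axis with little gap in tumors.

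The circadian clock is a loop in which CLOCK and ARNTL drive their own repressors, the PER and CRY proteins, through E-boxes, so its genes follow the hour of collection. Of 14 measured members, 4 were called, 2 higher (Per2, Per3) and 2 lower (Arntl, Clock), and NTL arrays made all 4. Without MYC NTL replicate 2 or 3 only 1 was called in each direction. In MYC tumors 3 rose and 8 fell, and in DEN tumors 0 rose and 1 fell.

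Per2 gave 9.01, 9.27 and 9.01 in MYC NTL, 7.28, 7.64, 7.19, 7.80 and 7.76 in MYC tumors, 7.69, 7.19, 7.42, 7.63 and 7.41 in DEN tumors and 7.04, 7.27, 7.63, 7.38 and 6.56 in DEN NTL. MYC NTL lay above every other array, controls (7.21 to 8.85) included. The difference was 1.85 ± 0.38 (adjusted p = 0.000973). Arntl, the positive partner, was low there, at 5.12, 4.80 and 4.78 against 6.29 to 8.46 in MYC tumors and 6.91 to 9.69 in both DEN groups, with a difference of -2.09 ± 0.64 (adjusted p = 0.0249, and 0.0604 without MYC NTL replicate 3).

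Per3 had 2.24 ± 0.71 (adjusted p = 0.029, and 0.0678 without MYC NTL replicate 2) and Clock -1.15 ± 0.23. Ciart, a repressor of CLOCK and ARNTL, read 10.51, 10.91 and 10.75 in MYC NTL and 5.55 to 8.26 in MYC tumors, but DEN NTL ran from 6.19 to 10.03 and its difference of 2.87 ± 1.06 did not pass (adjusted p = 0.0675). Control livers varied as widely, from 5.42 to 10.04. No label states the hour of collection, and its part in these differences was not tested. Against controls the differences of Per2, Per3, Arntl and Clock were -0.16, -0.49, 1.40 and 0.093, none of them called, and those of Per2 and Clock were 0.14 and -0.011 without the 3 controls that stood apart.

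The E-box CACGTG is the letter string that clock and MYC factors share, and it reads the same on both strands. The promoters of Ciart, of the clock list, and Nop2, of the ribosome list, are shown with it in capitals, as the 250 bases before the RefSeq start in GRCm38.p6. Ciart lies at chr3:95882229-95882478 on the minus strand and Nop2 at chr6:125131633-125131882 on the plus strand.
Ciart: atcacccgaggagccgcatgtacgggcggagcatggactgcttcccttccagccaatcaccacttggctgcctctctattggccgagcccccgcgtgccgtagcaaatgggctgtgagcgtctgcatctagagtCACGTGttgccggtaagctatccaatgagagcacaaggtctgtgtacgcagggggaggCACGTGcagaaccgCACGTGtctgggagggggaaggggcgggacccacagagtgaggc
Nop2: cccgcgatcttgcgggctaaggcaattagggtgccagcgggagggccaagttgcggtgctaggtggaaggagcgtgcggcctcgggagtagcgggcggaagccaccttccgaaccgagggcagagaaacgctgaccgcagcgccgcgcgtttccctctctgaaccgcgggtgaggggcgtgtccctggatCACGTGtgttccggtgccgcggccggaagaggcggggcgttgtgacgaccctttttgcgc

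Ciart holds 3 E-boxes and Nop2 holds 1, which begins 60 bases before the start. The string stood in 5 of 13 clock genes with a promoter (38.5%), in 5 of 27 ribosome genes (18.5%) and in 8.09% of all 27025 genes, again in windows of 300 bases.

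Genes of the pericentral zone showed how far 1 array can decide a value. Around the central vein, Wnt signals from the endothelium keep hepatocytes in a program of glutamine synthesis and drug metabolism. Of 20 measured members the difference was called lower for 2, Nkd1 and Sp5, a share near the 7.98% of all genes. Sp5 was at an adjusted p of 0.0585 without MYC NTL replicate 2, and the median of the list was -0.939. The mean of the list in MYC tumors was 10.57 to 10.88 in 4 arrays and 7.58 in replicate 3, where all 20 members had the lowest value of their group. Without that tumor 10 members were called lower.

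Glul, glutamine synthetase, read 13.49, 13.43, 9.41, 13.45 and 13.52 in MYC tumors over NTL of 12.37 to 12.54. DEN tumors read 10.76, 9.21, 12.71, 10.49 and 12.31 beside NTL of 11.97 to 12.29. Replicates 3 and 5 of DEN, which share an identifier stem, were high, and the other 3 were low. The difference was -1.21 ± 0.84 (adjusted p = 0.383), and -2.02 ± 0.56 (adjusted p = 0.0117) without MYC tumor replicate 3.

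Axin2, a feedback inhibitor and common readout of Wnt signalling, sorted the arrays the same way, at 8.60, 8.57, 5.43, 7.90 and 8.36 in MYC tumors and 5.62, 5.05, 8.24, 5.91 and 7.99 in DEN tumors. Its difference went from -1.86 (adjusted p = 0.105) to -2.45 (adjusted p = 0.00755) without that array. Nkd1, another feedback inhibitor, was called with it (-2.23 ± 0.62) and without it (-2.91), and tumor arrays made the difference: DEN tumors lay at 5.78 to 6.79 and 4 MYC tumors at 8.58 to 9.53. Oat and Rhbg, of ornithine and ammonia handling, moved from -2.03 and -2.14, not called, to -2.97 and -3.15, called.

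**Figure D5:**
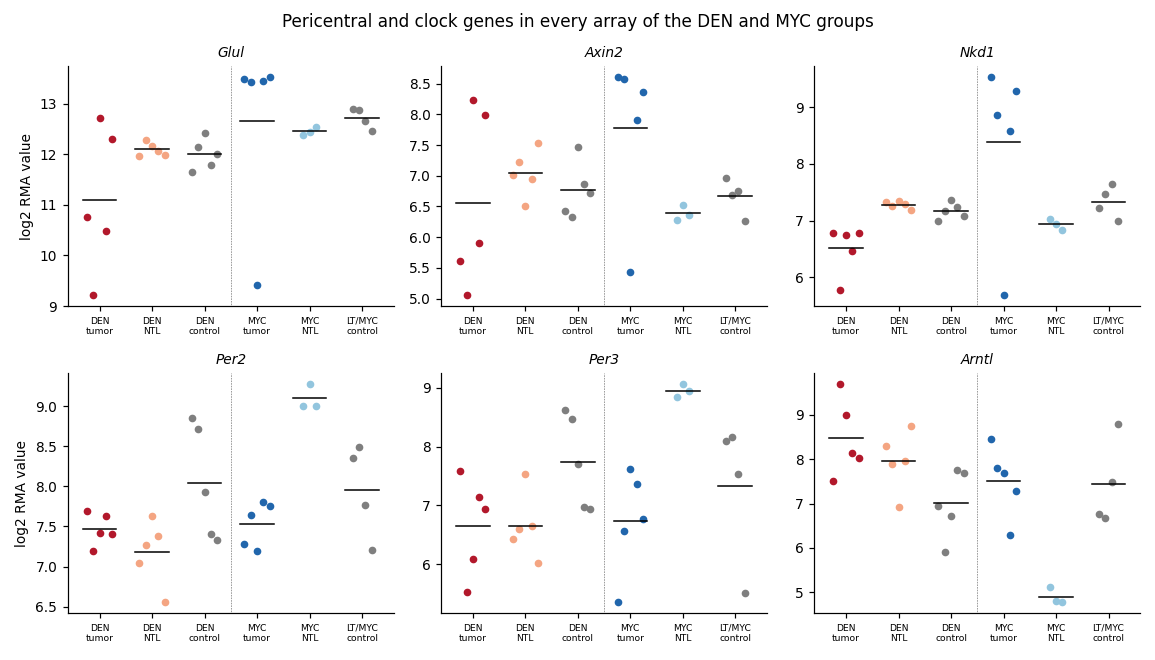
Log2 values of 3 pericentral genes (top) and 3 clock genes (bottom) in every array, with 1 point per array and a bar at each group mean. The third MYC tumor lies far below the other 4 for Glul (9.41 against 13.43 to 13.52), and the MYC NTL arrays stand apart for Per2, Per3 and Arntl.

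Markers of other cell types follow, from vessel wall to immune cells. Capillary endothelium, which replaces the sinusoidal type in growing tumors, rose for 15 of 22 members in DEN tumors and 4 in MYC tumors, where 3 fell, with 6 differences called higher, 0 lower, and a median of 0.621. It was 4 called higher without MYC NTL replicate 2 or 3, 12 with weights per array or per group, and 14 against controls. Plvap, which forms the diaphragms of fenestrae, lay at 8.57 to 9.01 in DEN tumors (NTL 8.58 to 8.73) and fell to 6.76 to 7.95 in MYC tumors from NTL of 8.45 to 8.57. Its difference was 1.34 ± 0.25 (adjusted p = 0.000447), made by tumor arrays. Col4a2, a collagen chain of the vessel basement membrane, rose by 1.09 in DEN tumors and had 1.29 ± 0.37. Sinusoidal endothelium fell for 12 of 20 members in DEN and 7 in MYC tumors. It had 2 differences called higher, a share near the 7.12% of all genes, among them the receptor gene Gpr182 (1.64 ± 0.45). The count was 1 without MYC NTL replicate 2 or 3.

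Kupffer cells, the resident macrophages, fell for 13 of 18 members in DEN and 2 in MYC tumors, with 3 differences called lower and a median of -0.729. Both kinds of array made 2 of these differences (Fcna and Cd5l), NTL arrays 1 and tumor arrays 0. The gene made by NTL arrays was Hmox1, also counted among the NRF2 targets. Cd5l passed at an adjusted p of 0.0482, and was at 0.106 without MYC NTL replicate 1. The list mean was 7.61 in DEN tumors and 7.82 in MYC tumors, with 8.66 in DEN NTL and 8.13 in MYC NTL. Against controls 1 member was called lower and 2 higher. Fcna, a ficolin of these cells, read 7.41, 7.26, 6.83, 6.96 and 6.24 in DEN tumors under NTL of 8.55 to 9.24, while MYC tumors at 7.18 to 8.64 overlapped NTL at 8.35 to 8.62. Its difference was -1.60 ± 0.46, shared by both kinds of array. Markers of recruited macrophages rose for 10 of 18 members in each model, with 2 differences called higher and 2 lower. Cd14, the endotoxin co-receptor, had 1.95 ± 0.49, and Mmp12, macrophage elastase, -1.89 ± 0.63 (adjusted p = 0.0949 without MYC NTL replicate 2). The count called lower was 0 without DEN tumor replicate 4 or any of the MYC NTL arrays.

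Matrix and stellate cell genes had 2 of 27 called higher, a share near the 7.12% of all genes: Sparc (1.53 ± 0.37) and Reln (1.89 ± 0.58, adjusted p = 0.0597 without MYC NTL replicate 1), and 8 against controls. The count was 1 without MYC NTL replicate 1 or 2. Interferon response genes rose for 16 of 28 members in DEN and 5 in MYC tumors, with 4 differences called higher and 1 lower. Without DEN tumor replicate 2, or MYC NTL replicate 2 or 3, 2 were called higher, and against controls 11. The immunoproteasome subunit Psmb8 had 1.33 ± 0.28, from a fall in MYC tumors (6.0 to 6.58, NTL 7.10 to 7.38), and tumor arrays made it. B cell markers had 0 of 17 called. The part of such cells in the differences of hepatocyte genes was not tested.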

How the data were processed

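RNA of mouse liver was measured on Affymetrix arrays, 1 per sample. The authors deposited log2 values made with RMA, per the submitters' processing notes. No label names a software version. They span 1.81 to 14.3 with array medians of 5.59 to 5.73. Precision is limited by how many arrays each group holds.

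Of 35556 probe sets, 21218 carried 1 symbol, 1881 several and 12457 none in the platform annotation. The brightest probe set stood for a gene, giving 18820 genes. Groups came from the labels. A mean per group was fitted to all 35 arrays with lmFit and eBayes of limma 3.58.1 in R 4.3.3, and contrasts were adjusted by Benjamini-Hochberg over 18820 genes. Errors are standard errors of this fit. A gene was called at an adjusted p under 0.05.

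Named genes were the 12 largest called differences per direction, the 5 genes per direction with opposite calls whose smaller change was largest, the 5 largest NTL-made genes per sign, per list 2 called members in its main direction and 1 in the other, and single genes chosen by name. Predicted, histone, receptor-segment and Mup genes were left out of rankings. The members and lists were chosen with earlier results of these data known, and 15 more genes after their values were seen. Of 732 listed genes, 657 were measured. In data simulated for this contrast over 18820 genes, 38%, 78%, 98% and 100% of genes changed by 0.5, 1, 2 and 3 log2 units were recovered, with 12 of 18620 unchanged genes called. The simulated arrays were independent, with 1 spread per gene in all groups. Real groups differed in spread: the standard deviation of the cell division mean was 0.744 in DEN tumors and 0.0988 in MYC NTL. These rates may therefore not hold for the real arrays. Promoters are from RefSeq, GRCm38.p6. Alternatives tried are given in the closing section.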

Additional observations from a re-analysis of the deposited data

Results flagged for a closer look

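The difference of changes between the models was itself called for 2841 genes. Single arrays lay far outside their group in 28 of 351 groups of named genes examined, by the gap to the nearest array over the group's range (Dixon's criterion at the 95% level, by which chance alone flags about 1 in 20 groups). The named genes were selected on these data, some after their values were seen, so that rate is no yardstick for this count. MYC NTL, with only 3 arrays, was too small for this criterion and was not examined. MYC tumor replicate 3 was the outlying array in 14 of the 28. It was high for Rdh16f2 (10.45), Golm2 (7.07), Abcd2 (9.48), F2 (12.73), Mki67 (10.04) and Golm1 (7.14). It was low for Cyp2c38 (7.64), Acot1 (5.03), Prodh (8.31), Nkd1 (5.68), Glul (9.41), Oat (8.12), Axin2 (5.43) and Rhbg (5.90). Among other MYC tumors, replicate 4 was high for Kars (8.85) and replicate 5 for Cd3e (5.86).

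DEN tumor replicate 1 was high for Me1 (9.76) and Acaa1b (8.81) and low for Abcc4 (6.22), Prom1 (6.90) and Itga3 (8.06). DEN tumor replicate 2 was high for Ccdc152 (4.96) and Cyp17a1 (12.37). In DEN NTL, replicate 2 was high for Cabyr (5.27), Il1rn (7.0) and Psmb8 (8.30), replicate 4 for Cyp4a14 (12.33), and replicate 3 was low for Tubb2a (8.03).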

How the results depend on the processing

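The count of 2841 genes stayed between 2562 and 3600 over the alternatives other than weights per array (4388), and between 2100 and 3190 with single arrays left out. With arrays left out, counts ran from 5579 to 6210 for tumors of the models, 519 to 1312 for NTL, 5229 to 6223 for DEN and 2728 to 4239 for MYC. The NTL count went from 1212 to 1863 with centred arrays, 3638 with weights per group and 3696 with weights per array, and to 519, 669 and 685 without MYC NTL replicates 1, 2 and 3. The MYC count was 2728 without MYC NTL replicate 1. Replicate numbers did not pair the arrays (correlations of same-numbered deviations from -0.316 to 0.111), and a fit with the replicate number as a block gave 2689 genes. Of 104 named called genes, 27 lost the call without at least 1 array, most often a MYC NTL array, and none reversed then. The main fit took the 5 DEN tumors as separate samples. With the arrays of an identifier stem averaged, 92 named genes kept the call, 11 lost it and 0 reversed. With only the 18 arrays compared in the fit, 89 kept the call, 14 lost it and 0 reversed. In that fit the counts called lower in the cell division and pericentral lists went from 2 to 0. Counts of genes keeping or losing a call leave out the brighter probe set shared by Nusap1 and Oip5. With controls in place of NTL, 57 named genes kept sign and call, and 33 kept the sign but lost the call. Another 13 reversed: Cabyr -0.43, Cyp4a14 0.21, Tubb2a 1.06, Serpinb1a 0.70, Ccdc152 -0.25, Per3 -0.49, Acnat2 0.39, Hmgcs1 0.47, Jund 0.061, Per2 -0.16, Arntl 1.40, Crat 0.16 and Clock 0.093. None of these was called there (adjusted p from 0.117 to 0.932). Chosen after seeing the data, the same baseline without 3 controls that stood apart in sex-biased genes called 2647 genes. There 49 named genes kept sign and call, and 43 kept the sign but lost the call. It turned 11: Cabyr -0.39, Cyp4a14 1.65, Tubb2a 1.30, Serpinb1a 0.41, Ccdc152 -0.23, Per3 -0.28, Acnat2 1.02, Hmgcs1 0.14, Jund 0.14, Arntl 1.26 and Crat 0.22. Against NTL, leaving those 3 controls out of the spread ended the calls of Cdc20, Aurka, Atf3, Akr1b10, Cd5l and Nqo1. The baseline arrays differ by construction, and the cause was not tested further.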

Other observations

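Genes not yet described include female-biased liver genes, of which 2 of 16 had a difference called higher (median 0.966) and 5 rose in DEN tumors against 0 in MYC tumors. The count was 0 without DEN tumor replicate 2 or any of the MYC NTL arrays, and 4 with the 3 control livers that stood apart in these genes left out of the fit. Abcd2, a carrier of very long fatty acids into peroxisomes, read 10.21, 10.89, 10.79, 10.60 and 10.84 in DEN tumors and 5.50, 4.87, 9.48, 4.68 and 5.63 in MYC tumors. Its difference was 3.29 ± 1.15 (adjusted p = 0.0499), 4.16 without MYC tumor replicate 3, and its adjusted p was 0.105 without MYC NTL replicate 2. Cyp17a1, a steroid hydroxylase, had 3.21 ± 1.06 (adjusted p = 0.0365, and 0.0929 without MYC NTL replicate 1).

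Acute phase genes had 5 of 24 differences called higher and 1 lower, and 2 called higher without DEN tumor replicate 4 or any of the MYC NTL arrays. Il1rn, the interleukin-1 receptor antagonist, read 8.37 to 9.87 in DEN tumors over NTL of 6.09 to 7.0 (difference 2.20 ± 0.46), and Saa3 went the other way (-2.43 ± 0.65). Of 23 genes of the urea cycle and amino acid breakdown, 3 were called lower, led by Prodh, proline dehydrogenase (-2.26 ± 0.54), whose DEN tumors at 6.41 to 8.82 lay under NTL of 9.88 to 10.29. Without MYC NTL replicate 1 or 3 only 1 was called. Cholesterol synthesis rose for 9 of 18 genes in DEN and 8 in MYC tumors, with 0 differences called higher and 2 lower, and 6 higher against controls (1 without the 3 controls that stood apart). The lower pair was Hmgcs1 (-1.38 ± 0.39) and Pmvk (-1.14 ± 0.38), with adjusted p of 0.0524 without MYC NTL replicate 2 and 0.114 without MYC NTL replicate 3.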
